A study of Mus musculus with 24 samples.

Results

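The genes described here are 34 targets and partners of ATF4 and CHOP, the transcription factors of the integrated stress response, in mouse islet cells exposed to palmitate. They were chosen by name, as the rows of the deposited gene table whose symbol is in a list of such genes, and all 34 were found among its 41549 genes. CHOP is encoded by Ddit3, which the table holds as Ddit3_1. All 34 had enough counts to be tested among 15916 genes.

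Dispersed islet cells of wild-type mice were transfected with 50 pmol of an antisense oligonucleotide (ASO), either a control (Ctr) or a locked nucleic acid inhibitor of 5'tRF Glu(CTC), a fragment from the 5' end of a glutamate tRNA (αGlu). Exposure to 0.5 mM palmitate complexed with BSA (PA), or to 0.75% BSA as its control, lasted 48 h. The 4 groups αGlu BSA, αGlu PA, Ctr BSA and Ctr PA had 6 mRNA libraries each, 3 in batch 1 (S1 to S12) and 3 in batch 2 (S13 to S24). What distinguishes the batches is not stated in the labels. According to the study's methods, replicates of primary cells are preparations from different animals and all groups of a replicate come from the same animal. The labels do not tie libraries to animals, so groups were compared as unpaired. Differences between animals within a batch therefore stayed in the spread of every test, including those of the ASO. In bulk islet RNA fewer cells of a type cannot be told apart from less RNA per cell.

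Cells respond to amino-acid shortage, misfolded protein in the endoplasmic reticulum (ER), haem lack or viral RNA by phosphorylating the translation factor eIF2α. Most protein synthesis then slows, while the mRNA of ATF4 is translated better, and ATF4 switches on genes for amino-acid synthesis and uptake together with Ddit3, whose product CHOP is linked to β-cell death. Saturated fatty acids such as palmitate are a standard way to load the ER of β-cells in culture, and ATF4 is controlled to a large extent by translation, so its mRNA is not a measure of its activity.

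ATF4 binds DNA with C/EBP partners at the C/EBP-ATF response element, whose core can be written TGATGNAA. This core was searched on both strands from 250 bases before to 50 after each start in the RefSeq promoters of GRCm38.p6. It was in 3.97% of 32851 promoters, in at least 1 promoter of 4.51% of the genes with an entry, and in 9 of the 29 members with an entry (31.0%), namely Asns, Atf3, Chac1, Fgf21, Nupr1, Pycr1, Slc1a4, Trib3 and Vldlr. Slc1a5, Slc7a3, Slc7a5, Eif4ebp1 and Cth had no entry. The same core letters, TGATGCAA on either strand, stood in 7 of the 9. Among the 9, 6 rose with PA in Ctr cells, and among the other 20 with an entry 12 did, against 15.5% of all genes tested. A match is a stretch of letters and not a measured binding site. The members were named as targets and partners of ATF4 and CHOP, so their share with the core only describes the list. The cAMP response element TGACGTCA was in 1 member (Ppp1r15a), against 2.03% of genes, and the ER stress element in 0 members, against 0.137% of genes. The 4 stretches below show the shared core in genes of different roles, on the strand of the gene from 5′ to 3′, with the core in capitals. They lie at chr1:191183416-191183463 (−, in an intron of a longer Atf3 transcript), chr2:119351029-119351076 (+, between genes), chr7:45615602-45615649 (−, between genes) and chr11:120643824-120643871 (−, between genes).
Atf3: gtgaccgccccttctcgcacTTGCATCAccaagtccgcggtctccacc
Chac1: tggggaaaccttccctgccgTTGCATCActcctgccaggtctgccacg
Fgf21: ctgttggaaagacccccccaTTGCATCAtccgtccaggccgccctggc
Pycr1: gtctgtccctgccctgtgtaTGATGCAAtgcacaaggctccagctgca

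The αGlu ASO is a designed sequence. It has 20 bases, which pair with bases 2 to 21 of its listed target, shown in capitals. The target is a part of the longer tRNA fragment.
αGlu ASO: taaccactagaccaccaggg
Target in 5'tRF Glu(CTC): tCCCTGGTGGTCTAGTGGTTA

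Each library held between 18214719 and 35001979 counts (median 26701201.5). Expression is given as CPM, counts scaled to the TMM-adjusted size of the library, except where TPM is named. The library Ctr BSA S1 stood apart, since 15.9% of its counts fell on CT010467.1, an annotated rRNA gene, against 0.549% to 3.47% in the other 23, and its summed CPM of 8 β-cell markers was 132894 against 82756 to 98084 in the other libraries of batch 1. The β-cell markers summed to between 82756 and 149826 CPM over all libraries and none was at 0. Markers of several cell types changed with PA at an adjusted p below 0.05. Of all genes tested, 30% did so in Ctr and 28.5% in αGlu cells. Of the 8 β-cell markers 3 fell and 2 rose in Ctr cells, among them Ins1 (-0.44), Mafa (-0.41), Iapp (0.43) and Ucn3 (0.58), and 2 fell and 2 rose in αGlu cells. Of 4 ductal markers 2 fell with each ASO, and Sst fell with each ASO and Ppy in Ctr cells, while no alpha-cell, endothelial or Schwann marker was called. The 6 fibroblast and stellate markers summed to 65.0 to 411 CPM in Ctr BSA and 6.70 to 41.2 in Ctr PA (4 of 5 tested fell), and to 38.9 to 922 in αGlu BSA and 4.12 to 156 in αGlu PA (3 of 5 fell). The 5 acinar markers summed to 102 to 9723 CPM in Ctr BSA and 55.7 to 2499 in Ctr PA (4 of 5 fell), and to 125 to 5294 and 74.4 to 2488 with αGlu (3 of 5 fell). Of 6 macrophage markers, summing to 77.1 to 343 CPM in Ctr BSA and 84.8 to 129 in Ctr PA, 4 fell in Ctr and 1 in αGlu. Between αGlu and Ctr cells no marker was called. All 4 Schwann markers were lower with αGlu at an unadjusted p below 0.05 (edgeR) in BSA and in PA. Their median log2 differences were -2.55 and -2.64, and 2.90% and 3.38% of all genes had such a p. Of the 6 macrophage markers 4 had it in BSA, 0 in PA and 3 for the ASO difference in PA response (2.09% of all genes). No other marker list held one. The part of these cells in the changes below was not tested.

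The members differed widely in level without palmitate. In Ctr BSA, on the TPM scale, which is per length, Atf4 was the highest at 403 ± 41.3 (SD, n = 6), followed by Atf5 at 335 ± 28.3 TPM. In Ctr BSA S1, CT010467.1 took 21.1% of the TPM, against at most 5.31% in the other libraries, which leaves less for other genes. Without Ctr BSA S1 Atf4 was at 418 ± 22.5 TPM. Ddit3 was the 12th at 79.0 ± 18.3 TPM and Trib3 the 14th at 62.7 ± 13.8 TPM (15th without S1). Asns, the asparagine synthetase, was at 233 ± 37.6 TPM (248 ± 3.75 without S1). Slc3a2, the heavy chain of several amino-acid exchangers, was at 165 ± 15.3 TPM (169 ± 11.9 without S1). At the low end stood the secreted factors Fgf21 at 3.83 ± 1.72 TPM and Stc2 at 3.30 ± 2.16 TPM. The members' median was 46.1 TPM, against 3.35 TPM over 22702 genes with a TPM value. With Ctr BSA S1 included, the ranges of all 33 pairs of neighbours in this order overlapped across libraries. Ranges without S1 were not compared, and part of the overlap comes from that library. Without it Slc7a5 was at 150 ± 8.99 TPM and Mthfd2, its next neighbour, at 113 ± 3.61 TPM, and Asns and Slc3a2 also lay further apart. Within each library, 7 pairs kept their order in 6 of 6, namely Atf4 over Atf5, Asns over Slc3a2, Slc7a5 over Mthfd2, Ppp1r15a over Ddit3, Ddit4 over Trib3, Phgdh over Eif4ebp1 and Slc7a3 over Cth, and the other pairs did not. Nupr1 was at 262 ± 278 TPM, with libraries from 37.3 to 628, with the libraries of batch 2 at the low end.

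**Figure D1:**
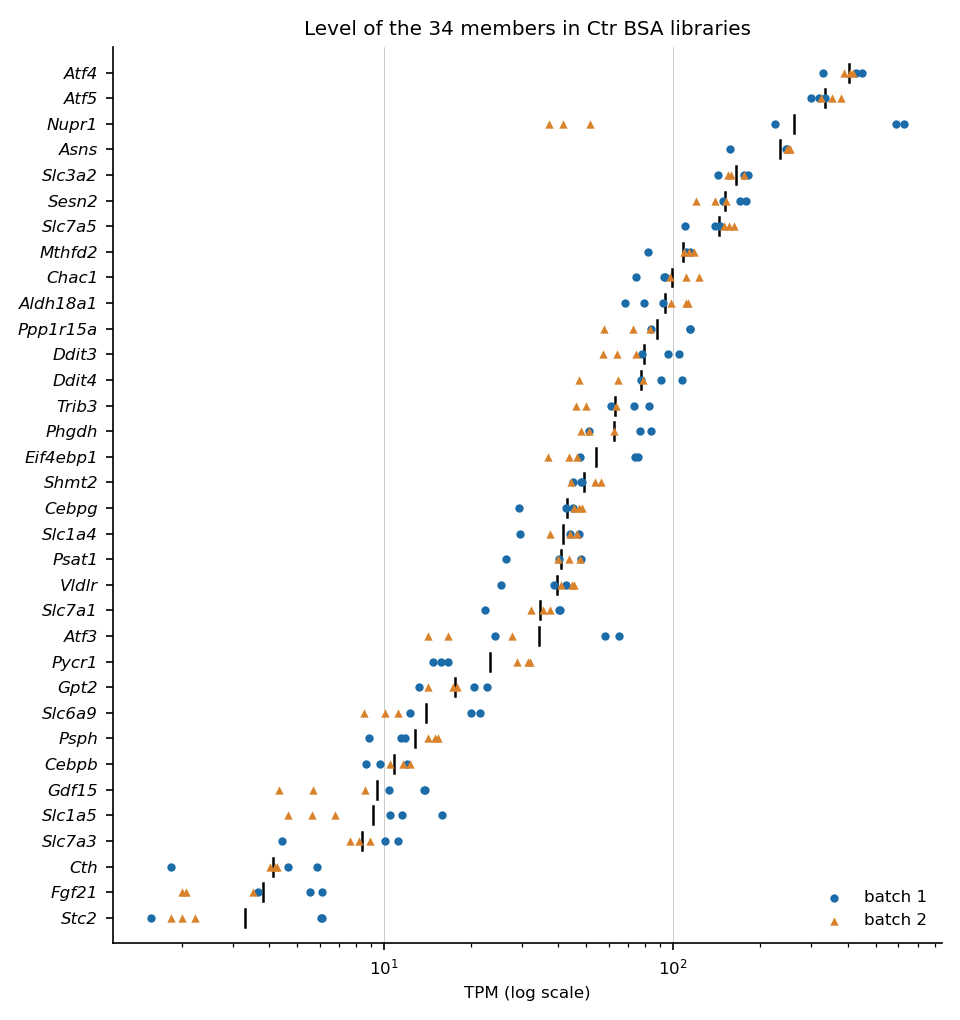
Level of each member in the 6 Ctr BSA libraries, in TPM on a log axis, with 1 point per library, circles for batch 1, triangles for batch 2 and a bar at the mean. Atf4 and Atf5 lie at the top and Stc2 and Fgf21 at the bottom, and for Nupr1 the triangles stand far below the circles in a range of 37.3 to 628 TPM.

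PA raised most of these genes by small amounts in cells with either ASO. With Ctr 19 of the 34 rose and 2 fell (Sesn2 and Ddit4) at an adjusted p below 0.05 in edgeR's quasi-likelihood test over all 15916 genes, and 13 did not pass. In αGlu cells 22 rose and 0 fell. Without Ctr BSA S1 these became 19 raised of 20 called in Ctr cells and 23 called in αGlu cells, for which the share of all genes is not given here. Of all genes tested, 30% were called in Ctr cells (15.5% raised and 14.5% lowered) and 28.5% in αGlu cells (14.4% raised and 14.2% lowered). The median log2 fold change of the members was 0.30 in Ctr and 0.39 in αGlu cells, against 0.01 over all genes in each. No member changed by more than 2-fold, the study's fold threshold, with an unadjusted p below 0.05, as 5.91% and 5.57% of all genes did, while 25 members had an unadjusted p below 0.05 in each comparison, against 40.6% and 39.1% of all genes. The highest fold was that of Stc2, at 1.81 in Ctr and 1.88 in αGlu cells. The members were named as stress targets with earlier results of these libraries known, so these counts are a description of the list.

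The stress transcription factors rose almost as a group, 6 of 7 in Ctr cells (median log2 fold change 0.47) and 6 of 7 in αGlu cells (median 0.46). Ddit3, at chr10:127290774-127296288 on the + strand, had 36.2, 50.6 and 63.7 CPM as the lowest, median and highest of 6 Ctr BSA libraries, 48.5, 79.5 and 89.7 in Ctr PA, 33.2, 47.4 and 60.7 in αGlu BSA, and 67.2, 76.1 and 81.2 in αGlu PA. Of the Ctr PA libraries 5 lay above every Ctr BSA library, and the remaining one, S23, lay inside their range. In αGlu cells the groups did not overlap. Ddit3 rose by 0.60 ± 0.127 on the log2 scale (SE, adjusted p = 0.000863) in Ctr and by 0.72 ± 0.127 (adjusted p = 0.000135) in αGlu cells, or 1.52-fold and 1.65-fold. Within each batch the log2 fold change was 0.37 and 0.84 in Ctr, and 0.43 and 1.00 in αGlu cells, with no overlap in either batch of Ctr cells.

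Atf4, at chr15:80255184-80257541 (+), the factor whose translation opens the response, had 338, 348 and 372 CPM in Ctr BSA as the lowest, median and highest, and 386, 405 and 429 in Ctr PA, and these groups did not overlap. In αGlu cells the values were 315, 353 and 364 CPM in BSA and 354, 411 and 428 in PA, and 5 of 6 PA libraries lay above all BSA libraries. Its rise was small, 0.20 ± 0.0484 in Ctr (adjusted p = 0.0026) and 0.21 ± 0.0484 in αGlu cells (adjusted p = 0.00234), about 15.1% and 15.4% more mRNA. Atf5, a related factor with its own upstream reading frames, rose by 0.41 ± 0.0762 (adjusted p = 0.000243) and 0.54 ± 0.0762 (adjusted p = 9.06e-06). Its libraries spanned 216 to 285 CPM in Ctr BSA and 290 to 397 in Ctr PA, and 221 to 265 and 296 to 419 CPM with αGlu, without overlap in either.

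Cebpg, a partner with which ATF4 binds DNA, gave the smallest p of the members in Ctr cells, with 79.1, 89.1 and 98.3 CPM in BSA as the lowest, median and highest and 104, 122 and 169 in PA. It rose by 0.50 ± 0.0586 (adjusted p = 7.81e-07) in Ctr and by 0.38 ± 0.0585 (adjusted p = 2.6e-05) in αGlu cells, where BSA libraries spanned 85.5 to 102 CPM and PA libraries 105 to 140. Neither pair of groups overlapped. Cebpb, another C/EBP factor, stood at 5.12 to 6.57 CPM in Ctr BSA and 6.70 to 9.45 in Ctr PA, and at 4.21 to 6.35 and 6.73 to 7.85 CPM with αGlu, again without overlap. It rose by 0.47 ± 0.108 (adjusted p = 0.00187) and 0.44 ± 0.109 (adjusted p = 0.00341). Cebpb shares 20.7% of its exon bases with Tmem189 on the opposite strand, and likewise Psph 10.4% with Cct6a, Slc6a9 27.8% with Ccdc24, Atf5 4.11% with Nup62 and Ddit3 3.97% with Mars. Ddit3 also shares 6.13% of its exon bases with a second annotated gene of that name on the same strand, which had a mean of 0 CPM. Whether counting used the strand is not given in the sources used here, so reads of these members and their neighbours may not be separated. By mean CPM over all libraries, Tmem189 was at 20.4 against 6.75 for Cebpb and Cct6a at 124 against 23 for Psph. Mars was at 140 against 62 for Ddit3, while Ccdc24 was at 3.2 against 30.6 for Slc6a9 and Nup62 at 49.5 against 296 for Atf5.

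Atf3, at chr1:191170296-191218039 (−), an early stress factor, rose by 0.56 ± 0.196 (adjusted p = 0.0338) in Ctr and 0.59 ± 0.197 (adjusted p = 0.0259) in αGlu cells. Its values were wide, 11, 23.5 and 49.1 CPM in Ctr BSA as the lowest, median and highest, 19.3, 33.6 and 61.5 in Ctr PA, 11.7, 19.3 and 42.5 in αGlu BSA, and 23.5, 29.0 and 53.2 in αGlu PA, and every pair of groups overlapped. The call was lost without any of 6 libraries in Ctr (Ctr BSA S1, S13 or S17, Ctr PA S7, S15 or S19, adjusted p = 0.0602 to 0.0945) and any of 5 in αGlu cells (αGlu BSA S2, S14, S18 or S22, αGlu PA S8, adjusted p = 0.0517 to 0.0593). Nupr1, a small chromatin protein induced by stress, had a log2 fold change of 0.46 ± 0.256 (adjusted p = 0.179) and 0.46 ± 0.255 (adjusted p = 0.183), and its values are given with the batches.

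**Figure D2:**
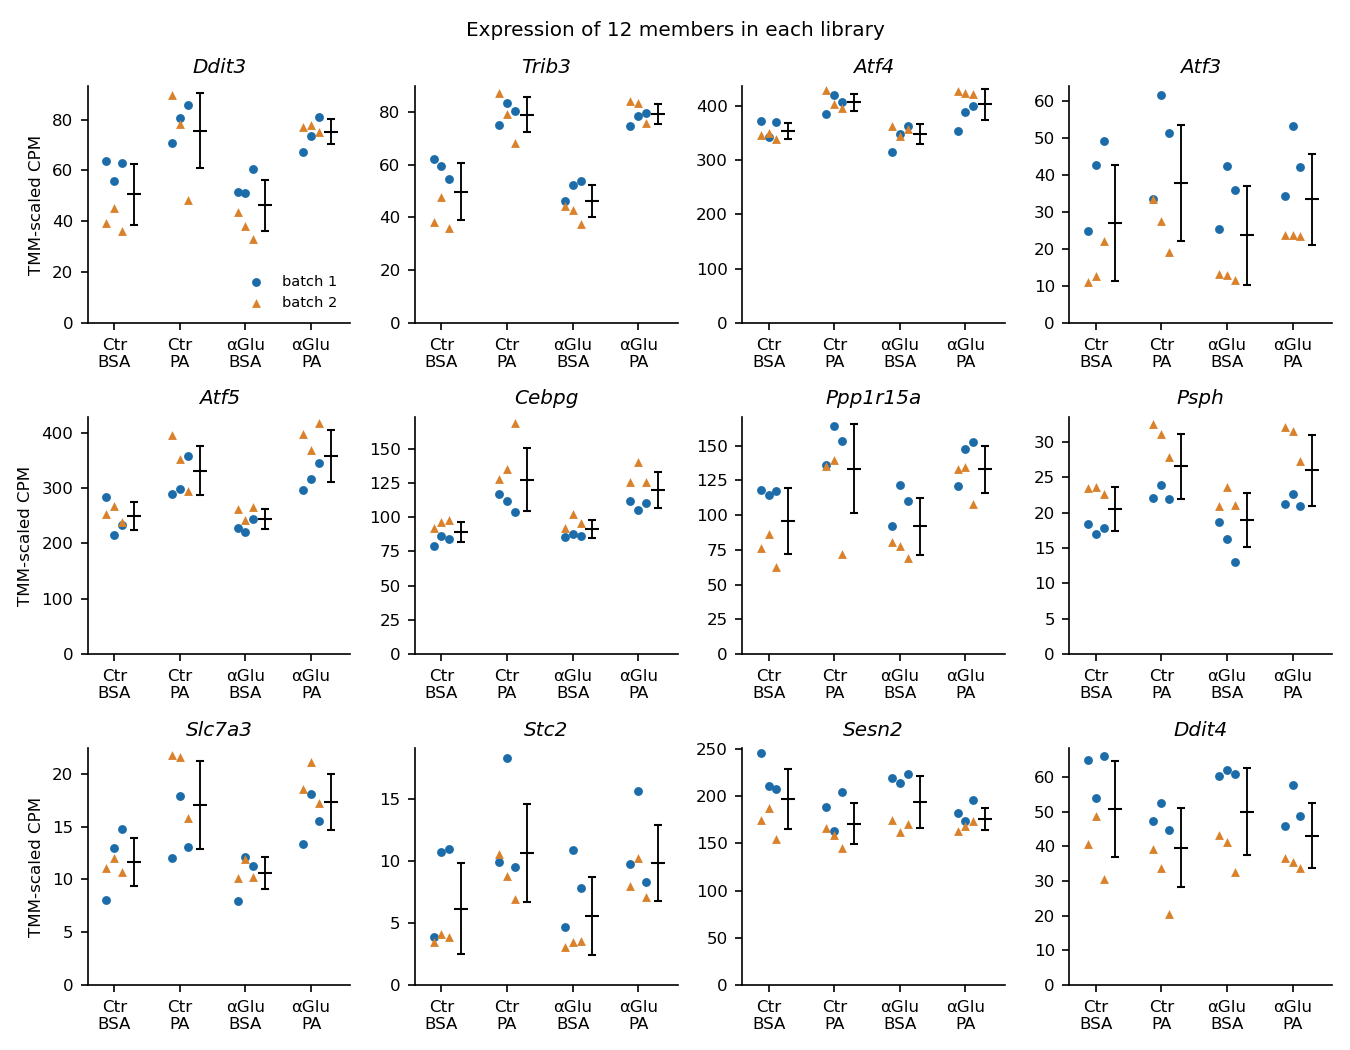
TMM-scaled CPM of 12 members in each of the 24 libraries, with circles for batch 1, triangles for batch 2, and the mean with its SD (n = 6) beside each group, on axes that start at 0. Ddit3 spans 36.2 to 63.7 CPM in Ctr BSA and 67.2 to 81.2 CPM in αGlu PA, and for Trib3 every PA point lies above every BSA point of the same ASO.

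Among the feedback genes and stress effectors 3 of 6 rose and 2 fell in Ctr cells (median 0.26), and 4 rose and 0 fell in αGlu cells (median 0.37). Trib3, a pseudokinase that binds CHOP and ATF4 and damps the response, had 36.1, 51.3 and 62 CPM in Ctr BSA as the lowest, median and highest, and 68.4, 79.8 and 87.3 in Ctr PA. With αGlu it had 37.7, 45.4 and 53.9 CPM in BSA and 74.8, 79.0 and 84.2 in PA. Neither pair overlapped. It rose by 0.68 ± 0.0944 (adjusted p = 7.46e-06) and 0.79 ± 0.0943 (adjusted p = 1.22e-06), 1.6-fold and 1.73-fold.

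Ppp1r15a encodes GADD34, which brings a phosphatase to eIF2α. It had 62.4, 101 and 118 CPM in Ctr BSA and 72.3, 138 and 164 in Ctr PA as the lowest, median and highest, and 69.2, 86.4 and 121 and 108, 134 and 153 CPM with αGlu. The groups overlapped in both, with 5 of 6 and 4 of 6 PA libraries above all BSA libraries. It rose by 0.50 ± 0.126 (adjusted p = 0.00434) and 0.56 ± 0.126 (adjusted p = 0.00172). Chac1, which degrades glutathione, rose less, by 0.27 ± 0.0641 (adjusted p = 0.00231) from 51.9 to 71.4 CPM in BSA to 60.4 to 92.8 in PA, and by 0.33 ± 0.0639 (adjusted p = 0.000366) with αGlu, from 50.6 to 68 to 57.9 to 85.9 CPM, and the groups overlapped in both.

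Sesn2 and Ddit4, whose products restrain the growth kinase mTORC1, were the members that fell in Ctr cells. Sesn2 had 154, 197 and 246 CPM in Ctr BSA and 145, 165 and 204 in Ctr PA, overlapping, and fell by 0.20 on the log2 scale (SE 0.0634, adjusted p = 0.0212). With αGlu its log2 fold change was -0.13 ± 0.0634 (adjusted p = 0.138), from 162 to 224 CPM in BSA and 163 to 196 in PA. Ddit4 had 30.7, 51.4 and 66.1 CPM in Ctr BSA and 20.5, 42 and 52.5 in Ctr PA, overlapping, and fell by 0.36 (SE 0.116, adjusted p = 0.0221), while with αGlu its log2 fold change was -0.21 ± 0.116 (adjusted p = 0.191), from 32.5 to 61.9 and 33.8 to 57.7 CPM. The call of Sesn2 was lost without any of 3 libraries, S1, S7 or S17 (adjusted p = 0.0552 to 0.0649), and that of Ddit4 without Ctr BSA S17 (adjusted p = 0.0727). Eif4ebp1, an inhibitor of cap-dependent translation, rose in αGlu cells by 0.41 ± 0.0976 (adjusted p = 0.00247), from 30.8 to 50.6 CPM in BSA to 44.5 to 60.2 in PA, overlapping. In Ctr cells it was 0.25 ± 0.0975 (adjusted p = 0.0524).

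The enzymes of amino-acid synthesis rose in part. In the serine and one-carbon pathway 2 of 5 rose with either ASO (medians 0.21 and 0.25). Psat1, the aminotransferase of serine synthesis, had 53.9, 64.8 and 71.9 CPM in Ctr BSA and 70.1, 87.6 and 99 in Ctr PA, and 51.9, 63.4 and 74.4 and 64.4, 82 and 102 CPM with αGlu. The groups overlapped, and it rose by 0.38 ± 0.0853 (adjusted p = 0.00157) and 0.40 ± 0.0852 (adjusted p = 0.000977). Psph, which makes serine from its phosphate, had 16.9 to 23.6 CPM in Ctr BSA and 21.9 to 32.6 in Ctr PA, and 13 to 23.7 and 21 to 32.1 with αGlu, overlapping, and rose by 0.37 ± 0.0685 (adjusted p = 0.00022) and 0.45 ± 0.0684 (adjusted p = 2.49e-05). Phgdh, the first enzyme of the pathway, and Shmt2 and Mthfd2 of mitochondrial folate metabolism did not pass, at 0.21, 0.07 and 0.09 in Ctr and 0.25, 0.14 and 0.05 in αGlu cells (adjusted p = 0.109 to 0.489). Phgdh has 13 processed pseudogenes with at least 250 bases at 95% identity or more, so its counts may be split.

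Of the other enzymes 3 of 5 rose with either ASO (median 0.17 in each). Pycr1, the last step to proline, had 21.8, 34.3 and 46.4 CPM in Ctr BSA and 31.3, 46.6 and 62.4 in Ctr PA, and 22.1, 35 and 45.3 and 32.3, 46.5 and 59.2 CPM with αGlu. The groups overlapped over the 6 libraries of each. It rose by 0.47 ± 0.0613 (adjusted p = 3.47e-06) and 0.41 ± 0.061 (adjusted p = 1.95e-05), with 0.50 and 0.44 in the batches of Ctr cells and 0.40 and 0.41 in those of αGlu cells. Asns rose slightly, by 0.16 ± 0.046 (adjusted p = 0.0107) and 0.15 ± 0.046 (adjusted p = 0.0138), from 205 to 254 to 233 to 295 CPM in Ctr and from 195 to 261 to 224 to 286 CPM in αGlu cells, overlapping in both. Aldh18a1, which makes the proline precursor, rose by 0.17 ± 0.0426 (adjusted p = 0.00305) and 0.17 ± 0.0425 (adjusted p = 0.00475), from 113 to 162 CPM in Ctr BSA and 138 to 190 in Ctr PA, and from 124 to 163 and 137 to 190 with αGlu, with overlap. Cth and Gpt2 did not pass, at 0.49 ± 0.204 (adjusted p = 0.0702) and 0.09 ± 0.0651 in Ctr, and 0.50 ± 0.204 (adjusted p = 0.0696) and 0.11 ± 0.0651 in αGlu cells.

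Amino-acid transporters rose in 3 of 7 cases in Ctr cells and 4 of 7 in αGlu cells (medians 0.11 and 0.13). Slc3a2 had 201, 216 and 240 CPM in Ctr BSA and 242, 257 and 273 in Ctr PA, and 191, 207 and 212 and 232, 261 and 274 with αGlu, and neither pair overlapped. It rose by 0.25 ± 0.0508 (adjusted p = 0.000704) and 0.33 ± 0.0508 (adjusted p = 3.32e-05). Slc7a3, a carrier of cationic amino acids, had 8.05, 11.6 and 14.8 CPM in Ctr BSA and 12, 16.9 and 21.8 in Ctr PA, overlapping, and 7.93, 10.8 and 12.1 and 13.4, 17.7 and 21.1 with αGlu, not overlapping. It rose by 0.53 ± 0.143 (adjusted p = 0.00663) and 0.70 ± 0.143 (adjusted p = 0.000669).

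Slc6a9, a glycine transporter, rose by 0.40 ± 0.106 (adjusted p = 0.00614) and 0.40 ± 0.105 (adjusted p = 0.00591), over libraries of 16.3 to 37.5 CPM in Ctr BSA and 23.4 to 53.9 in Ctr PA, and 14.7 to 39.3 and 24 to 52.1 with αGlu, overlapping in both. Slc7a5, the light chain that pairs with Slc3a2, rose by 0.13 ± 0.0458 (adjusted p = 0.0401) in αGlu cells, from 189 to 212 CPM to 185 to 243, and was at 0.11 ± 0.0459 (adjusted p = 0.0635) in Ctr cells. That call was lost without any of 8 libraries (αGlu BSA S14, S18 or S22, αGlu PA S12, S16, S20 or S24, and Ctr BSA S17, adjusted p = 0.0517 to 0.0978). Slc7a1, Slc1a4 and Slc1a5 did not pass, with log2 fold changes of 0.07, -0.14 and -0.25 in Ctr and 0.07, -0.11 and -0.03 in αGlu cells (adjusted p = 0.0971 to 0.915).

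Of the secreted factors and the lipoprotein receptor 2 of 4 rose in Ctr and 3 of 4 in αGlu cells (medians 0.39 and 0.59). Vldlr, a receptor of lipoproteins that ATF4 can induce, had 122, 149 and 163 CPM in Ctr BSA and 165, 178 and 225 in Ctr PA, and 140, 148 and 162 and 170, 174 and 191 with αGlu, and neither pair overlapped. It rose by 0.33 ± 0.0508 (adjusted p = 3.01e-05) and 0.25 ± 0.0507 (adjusted p = 0.000712). Stc2, a secreted glycoprotein, was low, at 3.43, 3.98 and 11 CPM in Ctr BSA and 6.94, 9.72 and 18.3 in Ctr PA, and 3.08, 4.11 and 10.9 and 7.13, 9.01 and 15.6 with αGlu, with overlap in both. Its rise was the highest of the members by fold, 0.86 ± 0.249 (adjusted p = 0.0113) and 0.91 ± 0.251 (adjusted p = 0.00802), and also among the least precise.

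Gdf15, a stress hormone that lowers appetite, rose in αGlu cells by 0.54 ± 0.171 (adjusted p = 0.0193), from 3.79, 5.75 and 8.66 CPM in BSA to 5.76, 7.70 and 13.7 in PA, overlapping, and lost that call without αGlu PA S8 (adjusted p = 0.0511). In Ctr cells it was at 0.22 ± 0.171 (adjusted p = 0.359). Fgf21, a metabolic hormone, was at 0.44 ± 0.245 (adjusted p = 0.18) and 0.63 ± 0.247 (adjusted p = 0.0573), with no library above 3.43 CPM.

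Groups of libraries that did not overlap were seen for 7 members in Ctr cells (Atf4, Atf5, Cebpb, Cebpg, Trib3, Slc3a2 and Vldlr) and 8 in αGlu cells (Atf5, Cebpb, Cebpg, Ddit3, Trib3, Slc3a2, Slc7a3 and Vldlr), against 5.82% and 8.12% of all genes. The sign was the same in both batches for 31 of 34 in each, which was not counted over all genes. The Ctr and αGlu comparisons share no library, but by the study's methods their groups came from the same animals. They were also estimated in a common fit with a shared batch term, so they are not independent. The sign of the log2 fold change was the same in both for 34 of 34 members. That share was not counted over all genes. The median absolute difference was 0.06 and the highest 0.33 (Gdf15). Over the 34 members the Pearson correlation of the log2 fold changes was 0.94, against 0.80 over all genes, a description across genes that share libraries within each comparison. Of the members, 19 rose in both and 10 were called in neither, and these shares were not counted over all genes.

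**Figure D3:**
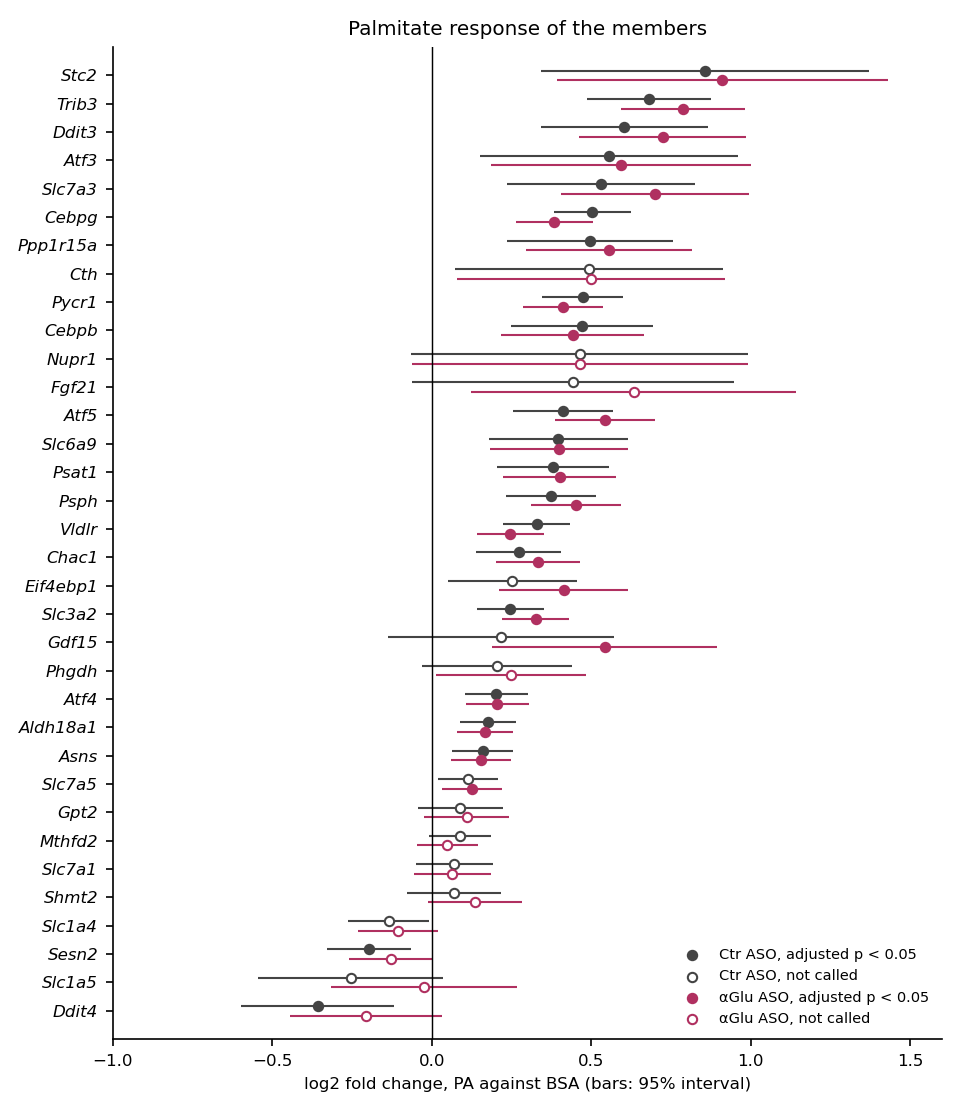
Log2 fold change of each member with PA relative to BSA, one line for each ASO, with 95% intervals, ordered by the value in Ctr cells, and filled points where the adjusted p was below 0.05. Filled points right of 0 number 19 for Ctr and 22 for αGlu, and the filled points of Sesn2 and Ddit4 in Ctr cells lie left of 0.

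Lists of further genes of the pathway were named in the same way and are given as counts, to be read against the 15.5% of all genes raised and 14.5% lowered in Ctr cells and the 14.4% and 14.2% in αGlu cells. Of 17 eIF2 kinases, activators and eIF2 subunits or exchange factors, 4 rose and 2 fell in Ctr (median 0.07) and 3 rose and 3 fell in αGlu cells (median -0.00). Impact, an inhibitor of the kinase GCN2, rose by 0.36 ± 0.0637 (adjusted p = 0.00016) and Gcn1, its activator, fell by 0.24 in Ctr cells. Of 20 cytosolic aminoacyl-tRNA synthetases, 8 rose and 2 fell in Ctr (median 0.12) and 8 rose and 1 fell in αGlu cells (median 0.10), led by Eprs at 0.36 and Sars at 0.41 in Ctr. Of 15 further ATF4 or CHOP linked genes, 6 rose and 3 fell (median 0.11), and 7 rose and 3 fell with αGlu (median 0.18). Aldh1l2, a mitochondrial folate enzyme, rose by 0.58 (adjusted p = 2.58e-09) and Tnfrsf10b, a death receptor known as a CHOP target, fell by 0.88 (adjusted p = 5.44e-06) in Ctr cells. Of 17 genes of the ATF6 and IRE1 arms of the unfolded protein response, 15 rose and 0 fell in Ctr (median 0.31) and 14 rose and 0 fell in αGlu cells (median 0.25), with Hspa5, the ER chaperone BiP, at 0.45 in Ctr cells.

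The αGlu ASO gave no called change in any member. In BSA and in PA 0 of 34 passed edgeR's test, 0 had an unadjusted p below 0.05, and DESeq2 also called 0, while over all genes 0% were called and 2.90% and 3.38% had an unadjusted p below 0.05. The smallest unadjusted p-values were 0.0763 (edgeR, Slc1a5 in BSA) and 0.0633 (edgeR, Cebpb in PA). The members' median log2 difference, αGlu minus Ctr, was -0.04 in BSA and 0.00 in PA, with values from -0.27 (Fgf21) to 0.05 (Aldh18a1) in BSA and from -0.21 (Cebpb) to 0.22 (Gdf15) in PA. No member had groups that did not overlap, against 0.0754% and 0.226% of all genes. A p that misses the threshold does not show equal levels, and the 95% intervals give the precision. All 34 held 0, and 29 of 34 lay within 0.5 on either side in each comparison.

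Ddit3 differed by -0.12 (95% interval -0.38 to 0.15) between αGlu BSA and Ctr BSA, and by 0.00 (-0.26 to 0.26) between αGlu PA and Ctr PA. Atf4 differed by -0.02 (-0.12 to 0.08) in each, Atf3 by -0.22 (-0.62 to 0.19) and -0.18 (-0.58 to 0.22), and Trib3 by -0.10 (-0.29 to 0.10) and 0.01 (-0.18 to 0.20). The interval of Atf4 was narrow and that of Atf3 wide. Among the further lists no gene was called either. Eif2ak2, the eIF2α kinase PKR that senses double-stranded RNA, had the smallest p of those lists in BSA, at 28.8 ± 3.10 CPM in Ctr BSA and 39.9 ± 6.14 in αGlu BSA (SD, n = 6), a log2 difference of 0.46 (0.27 to 0.65, edgeR adjusted p = 0.282), and 0.13 (-0.06 to 0.32) in PA.

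The response to PA was also compared between the ASOs by the interaction. No member was called by edgeR, 0 of 34 had an unadjusted p below 0.05 against 2.09% of all genes, DESeq2 called 0, and the smallest unadjusted p was 0.160 (edgeR, Cebpg). The signed log2 fold change was higher in αGlu than in Ctr cells for 26 of 34, against 48.5% of all genes (median difference 0.04, against -0.01 over all genes). The 26 count Sesn2, Ddit4, Slc1a4 and Slc1a5 with negative values closer to 0. The differences, αGlu minus Ctr, were 0.12 (-0.25 to 0.49) for Ddit3, 0.00 (-0.14 to 0.15) for Atf4, 0.04 (-0.53 to 0.61) for Atf3, 0.11 (-0.17 to 0.38) for Trib3 and 0.33 (-0.17 to 0.82) for Gdf15. The members called in 1 comparison alone, Sesn2 and Ddit4 in Ctr and Eif4ebp1, Slc7a5 and Gdf15 in αGlu cells, are therefore not shown to differ between the ASOs.

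**Figure D4:**
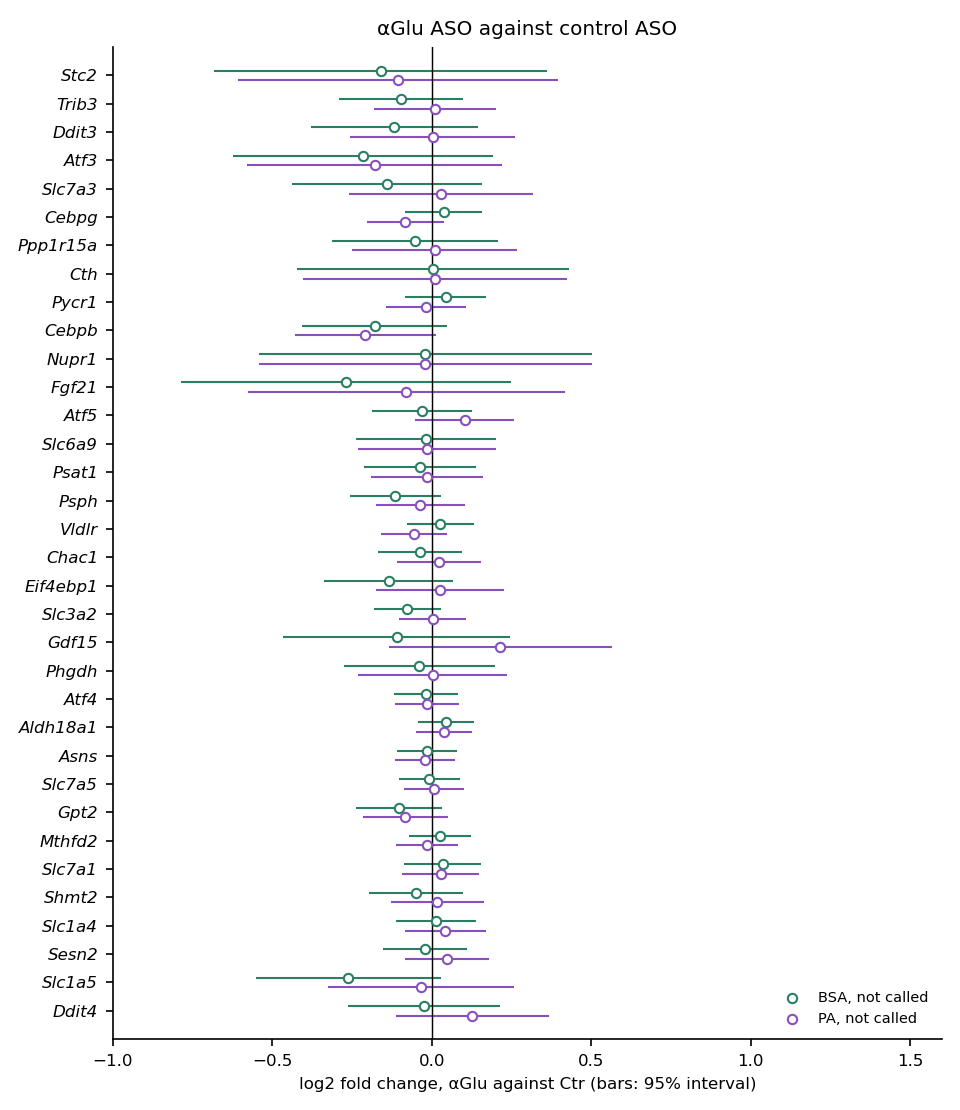
Log2 difference of each member between αGlu and Ctr cells, in BSA and in PA, with 95% intervals, in the same order as the plot of PA responses. All points are open, since none was called, and all 34 intervals of each comparison cross 0.

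Most members also differed in level between the batches. Of the 34, 25 were called between batch 2 and batch 1, 11 higher and 14 lower in batch 2 (median -0.03), against 51.5% of all genes (26.1% higher and 25.4% lower). Nupr1 was lower by far, at -2.69 ± 0.19 (adjusted p = 3.67e-11), and Slc1a5 (-1.17), Atf3 (-1.13), Gdf15 (-1.04) and Fgf21 (-1.02) were also lower by more than 2-fold, 5 of 34 in all, where 6.38% of all genes passed 2-fold with an unadjusted p below 0.05 in either direction and 5.32% were lower. Ddit3 was lower by 0.29 (adjusted p = 0.00888) and Trib3 by 0.19 (adjusted p = 0.0198). Pycr1 was higher in batch 2 by 0.81 and Psph by 0.44. All 5 acinar markers were lower in batch 2, with a median of -4.44, summing to 949.9 to 9723 CPM in batch 1 and 55.7 to 173 in batch 2, and all 8 β-cell markers were higher. The part of these cells in the batch values was not tested.

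Nupr1 had 271, 519 and 538 CPM in the 3 Ctr BSA libraries of batch 1 and 33.8, 38.6 and 46.1 in those of batch 2. In Ctr PA it had 275, 359 and 613 CPM in batch 1 and 56.7, 99.7 and 103 in batch 2, and in αGlu cells 254, 424 and 472 and 45.4, 47.4 and 50.5 in BSA, and 276, 387 and 457 and 82, 90.6 and 101 in PA. The BSA and PA libraries overlapped in batch 1 and were apart in batch 2, with each ASO. Over both ASOs its log2 fold change with PA was -0.06 in batch 1 and 1.03 in batch 2, a difference of 1.10 (0.49 to 1.70, adjusted p = 0.352).

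The signed log2 fold change with PA was higher in batch 2 for 29 of 34 members, against 45.9% of all genes. The median difference was 0.13, against -0.01 over all genes. The 29 members include Sesn2 and Ddit4, whose values were negative in both batches and closer to 0 in batch 2. None was called by edgeR, with 6 at an unadjusted p below 0.05 against 6.18% of all genes, where 0.0565% were called. Trib3 responded by 0.52 in batch 1 and 0.95 in batch 2, a difference of 0.43 (0.22 to 0.64, adjusted p = 0.171), and Ddit3 by 0.41 and 0.92, a difference of 0.51 (0.19 to 0.83, adjusted p = 0.445). The comparison of batches was chosen after the values had been seen.

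**Figure D5:**
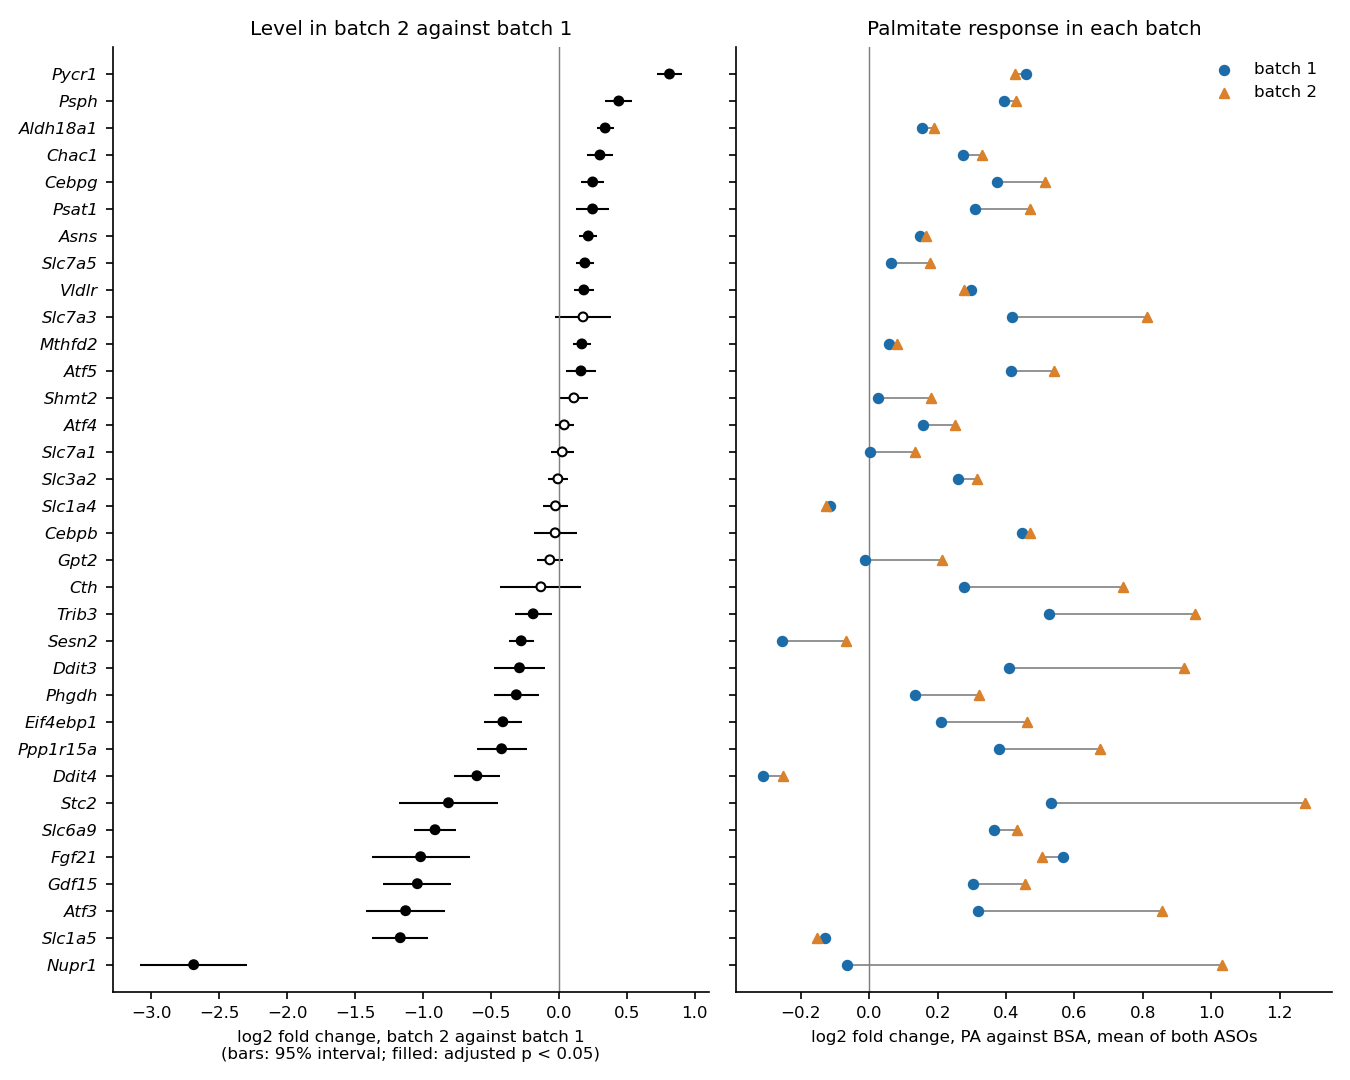
Left, log2 fold change of each member's level in batch 2 relative to batch 1, with 95% intervals and filled points where the adjusted p was below 0.05. Right, log2 fold change with PA in batch 1 (circles) and batch 2 (triangles), averaged over both ASOs, where the triangle lies to the right of the circle for 29 of 34 members and Nupr1 runs from -0.06 to 1.03.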

How the data were processed

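Dispersed mouse islet cells gave 24 stranded mRNA libraries. The authors used the QIAGEN RNA-seq Analysis Portal, and the submitters' processing notes name GRCm38. Aligner, annotation and strand use in counting: not given in the sources used here. What was deposited is a table of raw counts of reads on exons and TPM values. Counts served for all tests and for CPM, and the deposited TPM only for levels in Ctr BSA. Another 48 value columns (RPKM and CPM) and 1 row without a gene, with 0 counts, were not used. Analyses used R 4.3.3 with edgeR 4.0.16 and DESeq2 1.42.0. Counts were scaled by TMM, filtered by filterByExpr (minimum count 10) and fitted with terms for group and batch over all 24 libraries, with p-values adjusted by Benjamini-Hochberg over 15916 genes. Fits were tested on simulated data. Every member is accounted for, and members called in any comparison, with Ddit3, Atf4, Atf3 and Trib3, were given with their values. Of the further lists, up to 4 genes of smallest p could be named. Members and lists were chosen with earlier results of these data known. Alternatives were DESeq2, upper-quartile scaling, other filters, no batch term, compared groups alone, each batch alone, the fold rule and each library left out. Depth ran from 18214719 to 35001979 counts, and a low count limits Stc2, Fgf21, Cth, Cebpb and Gdf15 most.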

Additional observations from a re-analysis of the deposited data

Results flagged for a closer look

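Of 136 groups of 6 libraries, 5 held a library far from the others (chance marks about 1 in 20). Atf4 was at 315 CPM in αGlu BSA S2, below the next at 345. Ppp1r15a was at 72.3 CPM in Ctr PA S23, below the next at 135. Phgdh was at 84 CPM in αGlu PA S8, above the next at 65.8. Stc2 was at 18.3 CPM in Ctr PA S7, above the next at 10.6, and at 15.6 CPM in αGlu PA S8, above the next at 10.3. The cause was not tested.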

How the results depend on the processing

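No paired analysis was run. The labels give no replicate numbers shared across groups and do not say which libraries came from the same animal. The study's methods state that the groups of a replicate did. A fit that takes up the animals could differ in precision, also for the ASO comparisons and the interaction, and was not made. Of the members, 21 were called with PA in Ctr and 22 in αGlu cells. These counts became 10 and 13 without the batch term, 7 and 10 in batch 1 alone and 0 and 0 with the fold rule, which also left 5 of 25 batch calls; fewer libraries entered the fits of a batch. DESeq2 gave 22 and 22, upper-quartile scaling 22 and 22, no filter 22 and 21, the stricter filter 21 and 22, compared groups alone 17 and 25 and batch 2 alone 17 and 19. With each library left out the counts ran from 18 to 23 and from 20 to 24, stayed at 0 for the ASO comparisons and the interaction, and ran from 25 to 26 for batch. Without Ctr BSA S1 they were 20 and 23. Without Ctr PA S23, 23 members were called in Ctr cells and Ddit3 was at 0.69. Except for the fold rule, the share of all genes called under each alternative is not given here. Differences between these counts, also between the batches, are therefore not a result about the members. Of the ASO differences and interactions of Ddit3, Atf4, Atf3 and Trib3, some near 0 turned sign. In BSA in batch 2 alone Atf4 was at 0.040 and Trib3 at 0.031. In PA Ddit3_1 was at -0.0049 without the batch term, -0.0077 with the compared groups alone and -0.094 in batch 1 alone, Atf4 at 0.052 in batch 2 alone and Trib3 at -0.034 in batch 1 alone. The interaction of Atf4 was -0.0036 in batch 1 alone. With each library left out, Atf3 ran from -0.081 to 0.16 and Atf4 from -0.022 to 0.035 in the interaction, Atf4 from -0.036 to 0.0073 in BSA and -0.030 to 0.017 in PA, Ddit3_1 from -0.082 to 0.10 in PA and Trib3 from -0.030 to 0.066 in PA. The cause was not tested.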
